A study of Mus musculus with 14 samples.

Results

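The 10 genes described here encode the receptors of epidermal growth factor (EGF) and fibroblast growth factor (FGF) together with 1 inhibitor of the EGF receptor, out of 53696 genes in the deposited tables. The rule that chose them used gene names and no measured value, with earlier results of these data known. Egfr, Erbb2, Erbb3 and Erbb4 form the EGF receptor family, Fgfr1 to Fgfr4 are the signalling FGF receptors, Fgfrl1 is an FGF receptor without a kinase, and Lrig1 is a membrane protein that restrains EGF receptors. Poly-A RNA was sequenced from cultured adult neural stem and progenitor cells (NSPCs) of C57BL/6 mice in 14 libraries, in 2 experiments that the authors quantified in separate tables. In the quiescence experiment, 4 libraries of cells treated with BMP4, a growth factor that brings such cultures into quiescence, were set against 4 libraries of cells proliferating in FGF and EGF. In the knockout experiment, all cells were kept in FGF and EGF. Here 3 libraries of cells given an adeno-associated virus carrying Cre-GFP, the Yme1l knockout of the series' design, were set against 3 given a virus carrying GFP alone. For the quiescent cells the labels name BMP4 alone. An effect of BMP4 and one of a change in FGF and EGF therefore cannot be told apart in the quiescence experiment. The labels say that the cells of all groups, both virus groups included, came from wild-type mice. They name neither a floxed allele nor the promoter driving Cre. They do not say whether replicates are separate animals or cultures, so p-values measure the spread between these libraries, which may be technical.

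EGF and FGF are the mitogens that keep adult NSPCs dividing in culture. A ligand brings a pair of receptor molecules together, the tyrosine kinase inside the cell is switched on, and adaptor proteins pass the signal to the RAS to ERK cascade. ERBB2 has no known ligand of its own and acts as a partner of the other family members, ERBB3 has a weak kinase, and ERBB3 and ERBB4 bind neuregulins. EGFR is widely used as a surface marker of activated neural stem cells, and FGFR3 marks radial glia and astrocytes. LRIG1 lowers the amount of EGF receptors at the membrane and is also known as a marker of slowly dividing stem cells.

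Egfr gives rise to 2 main transcripts whose coding sequences part near the end of the extracellular region. Egfr-201 encodes the whole receptor in 1210 codons. Egfr-202 shares 641 of these codons, then reads on into what is an intron for the long form and stops after 655 codons, before the membrane-spanning segment and the kinase. This splits the readout of the gene, so the bases at the parting are shown, from the GENCODE transcripts of GRCm38 and on the plus strand, 5′ to 3′. The 20 bases in lower case end the shared exon, and the 40 in capitals are those that follow in each form, at chr11:16887186-16887225 in Egfr-202 and at chr11:16889913-16889952 in Egfr-201.
Egfr-202: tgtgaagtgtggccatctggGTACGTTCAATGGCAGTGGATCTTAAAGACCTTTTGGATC
Egfr-201: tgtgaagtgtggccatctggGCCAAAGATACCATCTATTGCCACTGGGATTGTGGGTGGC

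The libraries held between 6475099 counts (a quiescent library) and 10320736 counts (a GFP control). Yme1l1, the targeted gene, was at 22.9 to 25.7 CPM (counts scaled to the size of the normalised library) in the knockout and at 121 to 135 CPM in the GFP control, a 5.13-fold lower mean (adjusted p = 5.89e-11). Quiescent replicate 2 and knockout replicate 3 stood apart from the other libraries of their groups in a principal component analysis. Without either of them, 8 and 4 of the receptor genes were called, as many as with them. All 8 stem and progenitor markers had counts in every group, Nes, Sox2 and Vim at high levels and Prom1 near 0. Microglial markers summed to 0 to 6.47 CPM over all libraries, with Cx3cr1, C1qa and Ptprc at 0 throughout. Neuronal markers summed to 15.6 to 23.4 CPM, with Tubb3 at 7.29 to 15.6 CPM by group mean and Stmn2 at 0. Vessel and fibroblast markers summed to 5.21 to 12.7 CPM with Cldn5 at 0, and ependymal markers to 15.8 to 78.4 CPM with Tmem212 at 0. Tek held most of the vessel sum in the knockout (10.7 CPM) and the GFP control (5.88 CPM), and Acta2 was at 6.97 CPM in proliferating cells. Foxj1 held most of the ependymal sum, at 51.0, 64.1, 17.4 and 21.2 CPM in quiescent, proliferating, GFP control and knockout cells.

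TPM values, which correct for transcript length and library size, were used to rank the receptors within a group. Between the experiments TPM followed the GC content of the transcripts, as given below. The order of genes of unlike GC content within a group is therefore not secured. In quiescent cells Fgfrl1 was highest at 550 ± 20.9 TPM (SD), followed by Lrig1 at 390 TPM, Fgfr1 at 301 TPM and Fgfr3 at 120 TPM (means, n = 4). Fgfr2 at 38.7 TPM, Erbb2 at 21.6 TPM and Egfr at 9.93 TPM came next, and Fgfr4 at 3.21 TPM, Erbb4 at 0.749 TPM and Erbb3 at 0.120 TPM closed the order. None of the 9 neighbouring pairs in this order overlapped between libraries. In proliferating cells Fgfrl1 at 339 TPM and Lrig1 at 285 TPM again came first and second. Fgfr3 at 254 TPM and Fgfr1 at 247 TPM overlapped, Egfr came next at 36.2 TPM, and Fgfr2 at 29.9 TPM overlapped Erbb2 at 28.8 TPM. Erbb4, Fgfr4 and Erbb3, all under 0.5 TPM on average, formed overlapping neighbours at the foot of the order.

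**Figure D1:**
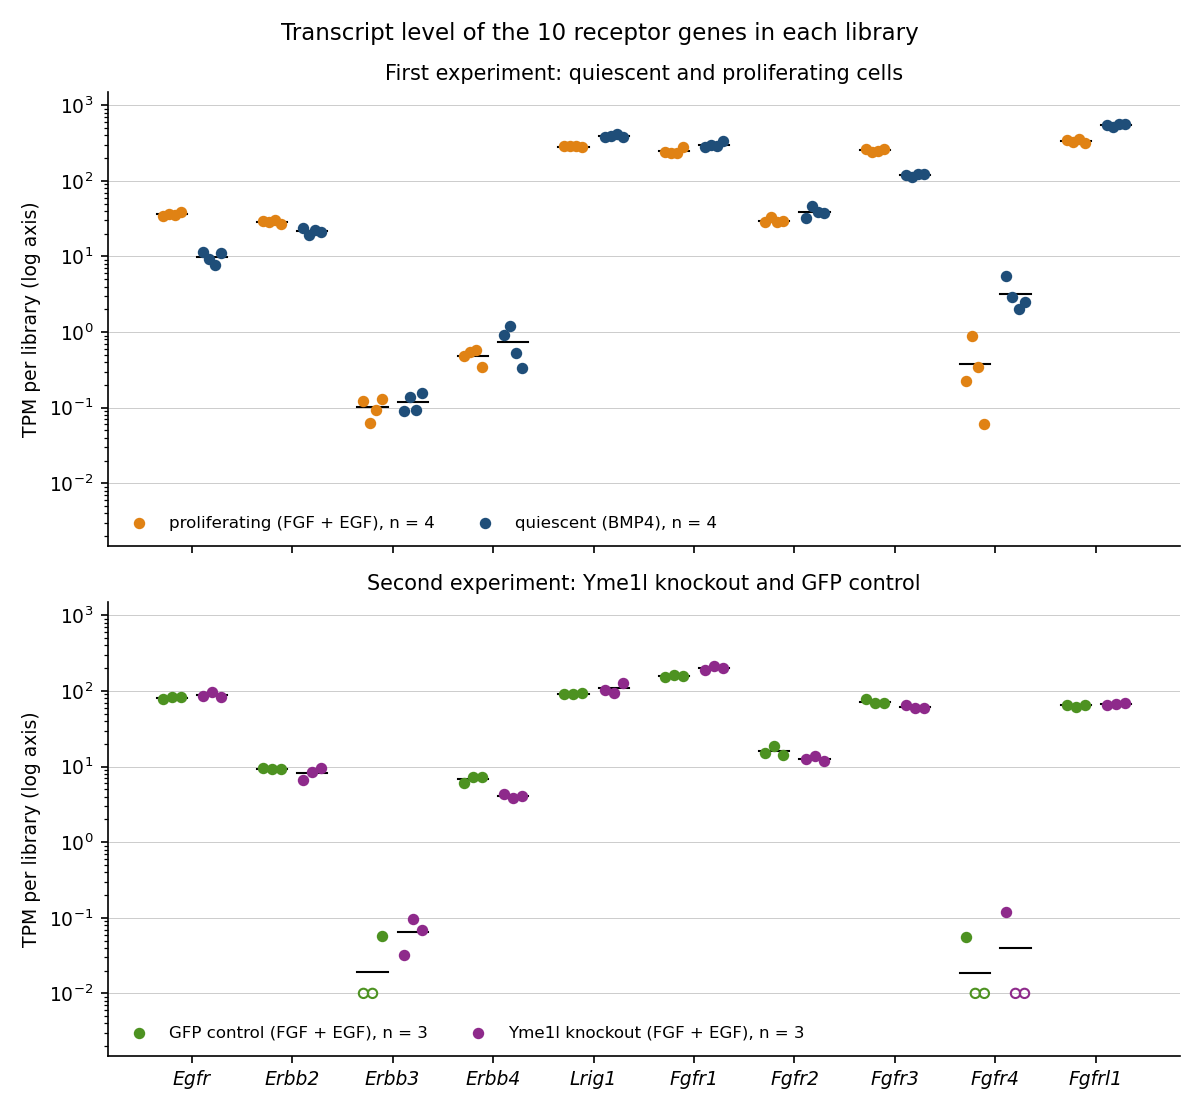
TPM of the 10 receptor genes in each library on a log axis, with 1 point per library, a bar at the group mean, and open points for libraries at 0 TPM, drawn at 0.01. Egfr and Fgfr3 lie lower in the quiescent libraries than in the proliferating ones, Fgfr4 lies higher, and in the knockout experiment Erbb4 lies lower in the knockout.

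The first comparison asked how the receptors differ between quiescent and proliferating cells. Egfr and Fgfr3 were markedly lower in quiescent cells and Erbb2 somewhat lower. Fgfr4, Fgfrl1, Lrig1, Fgfr2 and Fgfr1 were higher. Of the 9 receptor genes with enough counts to test, 8 passed an adjusted p of 0.05, 5 of them higher and 3 lower, and their groups did not overlap. Among all 12245 genes tested 65.4% passed, 29.9% higher and 35.5% lower, and 59.7% did not overlap, so a call by itself sets a receptor gene little apart. Scaling by library size alone called 2823 genes higher and 5219 lower, against 3664 and 4346 here. In these bulk cultures, fewer cells with a transcript and less RNA per cell cannot be told apart.

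Egfr (ENSMUSG00000020122, GRCm39 chr11:16702203-16868158, plus strand) measured 26.2, 28.5, 21.2 and 28.5 CPM in quiescent replicates 1 to 4. In proliferating replicates 1, 2, 4 and 5 it measured 96.6, 82.8, 92.4 and 85.5 CPM. The highest quiescent library lay far under the lowest proliferating one. The means were 26.1 ± 3.45 and 89.3 ± 6.31 CPM (SD, n = 4 each), a log2 fold change of -1.77 (SE 0.09, adjusted p = 5.00e-11), or 3.41-fold lower in quiescent cells. Only 7.72% of all genes tested had a larger absolute change. Both Egfr transcripts were lower as well. Egfr-202 went from 27.0 ± 1.75 to 6.74 ± 0.863 TPM, 4.0-fold lower, and Egfr-201 from 7.24 ± 1.70 to 2.46 ± 0.566 TPM, 2.95-fold lower (two-sided exact permutation p = 0.0286 for each, the smallest that 4 against 4 libraries allow).

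Erbb2 (chr11:98303296-98328542, plus strand), the ligand-less partner receptor, measured 52.8 to 66.4 CPM in quiescent and 77.0 to 86.9 CPM in proliferating libraries. These ranges did not overlap, and the gene was 1.35-fold lower in quiescent cells (log2 fold change -0.43, SE 0.07, adjusted p = 7.12e-05). The change was -0.28 without quiescent replicate 2 and -0.26 with the GC trend removed, and passed in both. Erbb3 (chr10:128403392-128425521, minus strand) had 12 counts in the 4 quiescent and 13 in the 4 proliferating libraries, too few to test. Erbb4 (chr1:68071345-69147218, minus strand), a neuregulin receptor, had 6, 51, 9 and 17 counts in the quiescent and 32, 13, 38 and 11 in the proliferating libraries. The libraries of each group scattered widely and overlapped, and the 95% interval of the log2 fold change, from -1.02 to 1.28, leaves room for more than a doubling either way.

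Lrig1 (chr6:94581510-94677139, minus strand), the inhibitor, measured 1075, 990, 1074 and 1028 CPM in quiescent and 760, 806, 784 and 772 CPM in proliferating libraries. It was 1.33-fold higher in quiescent cells (log2 fold change 0.42, SE 0.04, adjusted p = 1.79e-07), with every quiescent library above every proliferating one. With library size alone the change was 0.28. Egfr, its target, was lower in the same libraries.

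Fgfr1 (chr8:26003670-26065734, plus strand), a main FGF receptor of neural progenitors, averaged 614 CPM in quiescent and 498 CPM in proliferating cells, 1.23-fold higher (log2 fold change 0.30, SE 0.05, adjusted p = 5.59e-05). Fgfr2 (chr7:129764181-132725079, minus strand) averaged 69.6 and 55.5 CPM, 1.26-fold higher (log2 fold change 0.33, SE 0.07, adjusted p = 0.000341). With library size alone these changes were 0.16 and 0.19, still past the threshold, and with the GC trend removed that of Fgfr1 was 0.45. The span that the deposited table gives to Fgfr2 also holds 35 other genes on its strand, 14 of them protein-coding. In 7 libraries its estimated count was not a whole number, so its counts are uncertain where reads were divided between genes.

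Fgfr3 (chr5:33879018-33894412, plus strand) went the other way. It measured 277, 248, 267 and 253 CPM in quiescent and 499, 494, 518 and 505 CPM in proliferating libraries. The mean was 1.93-fold lower in quiescent cells (log2 fold change -0.95, SE 0.04, adjusted p = 2.18e-11), with a clear gap between the groups. The other FGF receptors tested were each higher.

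Fgfr4 (chr13:55300453-55316572, plus strand), the rarest FGF receptor here, had 38, 45, 23 and 34 counts in quiescent and 4, 2, 6 and 1 counts in proliferating libraries. The lowest quiescent library held more counts than all 4 proliferating libraries together, which had 13. Relative to library size the ratio was 12.7, with an exact 95% interval of 7.21 to 24.5 for counting error alone. The fitted log2 fold change was 3.75 (SE 0.38, adjusted p = 3.44e-07), and 1.06% of all genes tested had a larger absolute change. By limma on log2(TPM + 1), a scale that understates changes of low genes, it was 1.58. At 3.21 TPM Fgfr4 was still far under Fgfr1, Fgfr2 and Fgfr3 in the same quiescent libraries.

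Fgfrl1 (chr5:108840248-108854790, plus strand), which binds FGFs and carries no kinase, measured 700, 617, 681 and 696 CPM in quiescent and 405, 400, 440 and 397 CPM in proliferating libraries. It was 1.64-fold higher in quiescent cells (log2 fold change 0.71, SE 0.05, adjusted p = 3.06e-09), and the groups lay well apart. By TPM it was the highest of the 10 genes in both groups.

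**Figure D2:**
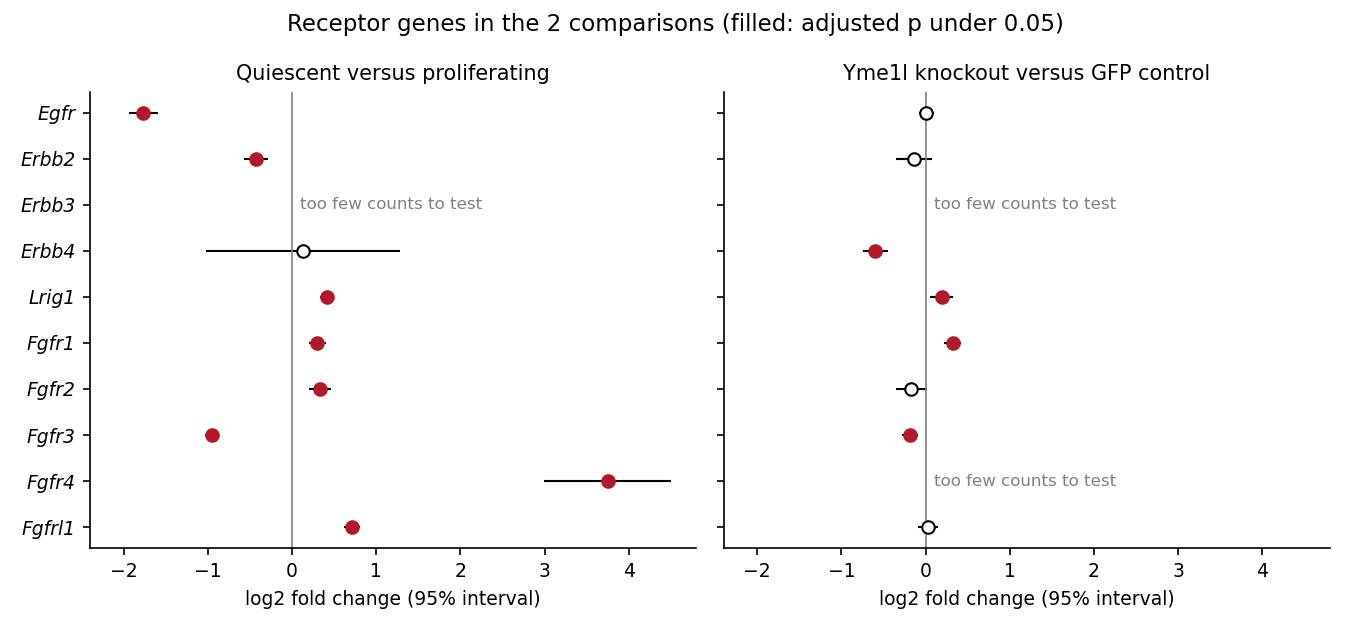
Log2 fold change of each receptor gene, with its 95% interval, for quiescent over proliferating cells (left, 4 against 4 libraries) and Yme1l knockout over GFP control (right, 3 against 3). Filled points passed an adjusted p of 0.05: 8 of 9 tested on the left, from -1.77 for Egfr to 3.75 for Fgfr4, and 4 of 8 on the right, from -0.60 for Erbb4 to 0.32 for Fgfr1.

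Markers of cell state moved in the same libraries. Astrocyte markers summed to 6488 to 6711 CPM in quiescent and 4454 to 4602 CPM in proliferating libraries, with 6 of 8 rising and 1 falling. Oligodendrocyte lineage markers summed to 2917 to 3202 against 3882 to 4321 CPM, mostly from Olig1 and Olig2, while Sox10 and Mog were at or near 0. Stem and progenitor markers summed to 3127 to 3503 against 3586 to 3856 CPM, with 4 of 7 tested falling and 2 rising. Of the 8 microglial markers only 1, Tmem119, had counts enough to test, and it rose from 0.105 to 4.06 CPM. P2ry12 had 1 count in proliferating and 9 in quiescent libraries, and Cx3cr1, C1qa, Itgam and Ptprc were at 0 in both groups. The part of these shifts in the receptor changes was not tested.

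The second comparison asked whether loss of Yme1l, a mitochondrial protease, alters the receptors while the cells remain in FGF and EGF. Erbb4 and Fgfr3 were lower in the knockout, and Fgfr1 and Lrig1 were higher. These 4 of the 8 receptor genes tested passed an adjusted p of 0.05 and did not overlap between groups. Of all 12625 genes tested 51.6% passed, 25.4% higher and 26.2% lower, and 61.4% did not overlap, so 4 of 8 is near the share among all genes. The changes were small, at most 1.51-fold.

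Egfr measured 348, 343 and 343 CPM in knockout replicates 1 to 3, and 342, 350 and 337 CPM in the GFP controls. The groups overlapped, with a log2 fold change of 0.01 (SE 0.04, adjusted p = 0.897) and a 95% interval from -0.08 to 0.10. A change as large as the one between quiescent and proliferating cells lies far outside that interval. Erbb2 measured 18.5, 23.7 and 25.1 CPM in the knockout and 25.9, 24.0 and 24.3 CPM in the control (log2 fold change -0.14, 95% interval -0.36 to 0.07, adjusted p = 0.292). The lower mean came mainly from replicate 1. Erbb3 was again at the edge of detection, with 6 counts in the knockout and 2 in the control.

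Erbb4 was well measured in this experiment, with 233 to 432 counts per library. It stood at 28.9, 26.2 and 26.4 CPM in the knockout and at 41.4, 40.5 and 41.4 CPM in the control. Both groups were tight, and the knockout was 1.51-fold lower (log2 fold change -0.60, SE 0.08, adjusted p = 2.22e-05). In 1 fit of all 14 libraries the change was -0.63 and its adjusted p was 0.0654.

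Lrig1 measured 265, 251 and 314 CPM in the knockout and 239, 242 and 247 CPM in the control. The groups only just failed to overlap, and replicate 3 was the high one. The mean rose by 0.19 on the log2 scale (SE 0.07, adjusted p = 0.0407). The change was 0.09 without knockout replicate 3 (adjusted p = 0.0454), and the adjusted p was 0.0901 to 0.129 when any 1 control was left out.

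Fgfr1 measured 374, 374 and 409 CPM in the knockout and 297, 313 and 314 CPM in the control, 1.25-fold higher (log2 fold change 0.32, SE 0.05, adjusted p = 0.000122). Fgfr3 measured 118, 117 and 121 CPM against 135, 135 and 134 CPM, 1.14-fold lower (log2 fold change -0.19, SE 0.05, adjusted p = 0.00489). For both, all 3 knockout libraries lay on 1 side of all 3 controls. Fgfr2 measured 23.1, 20.97 and 22.6 CPM in the knockout and 26.5, 25.9 and 22.6 CPM in the control, with an adjusted p of 0.151 and a 95% interval of the log2 fold change from -0.35 to 0.02. Fgfrl1 averaged 76.4 and 74.8 CPM, with an adjusted p of 0.708 and an interval from -0.09 to 0.15. Fgfr4 was barely detected, with 2 counts in the knockout and 1 in the control, a count ratio of 2.10 with an exact 95% interval of 0.109 to 124.

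In the knockout, oligodendrocyte lineage markers summed to 2966 to 3360 CPM against 2392 to 2524 CPM in the control, with 3 of 6 tested higher. Stem and progenitor markers summed to 3093 to 3477 against 4171 to 4301 CPM, with 5 of 7 tested lower, Hes5 and Fabp7 most of all. Astrocyte markers summed to 2279 to 2446 against 2077 to 2096 CPM, with 4 of 7 tested higher and 1 lower. The lower one was Aldoc, at 105 against 197 CPM. Slc1a3, which was not called, made up most of the sums, at 1516 against 1404 CPM. Their part in the receptor changes was not tested.

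Whether a receptor changed differently with quiescence and with loss of Yme1l was also tested. The measure was the difference of the 2 log2 fold changes, knockout effect minus quiescence effect, in 1 fit of all libraries. It passed for 5 of 9 receptor genes, against 38.9% of all 13580 genes tested, of which 21% had a higher and 18% a lower value in the knockout contrast (2848 and 2441 genes). This split depended on the scaling, with 2229 higher and 3094 lower by RLE size factors, and 4173 and 1732 by library size alone. Egfr differed by 1.73 (SE 0.10, adjusted p = 2.24e-11) and Fgfr3 by 0.71 (SE 0.07, adjusted p = 1.58e-07). For both, the fall in quiescence was larger than any change in the knockout. Fgfrl1 differed by -0.74 (SE 0.09, adjusted p = 9.43e-07), Fgfr2 by -0.55 (SE 0.11, adjusted p = 0.000703) and Lrig1 by -0.28 (SE 0.09, adjusted p = 0.0145). All 3 were higher in quiescence, while in the knockout the changes were 0.03 for Fgfrl1, -0.17 for Fgfr2 and 0.19 for Lrig1. The Lrig1 difference was -0.12 with library size alone (adjusted p = 0.208), and it was also lost with limma on TPM (0.114) and without knockout replicate 2 (0.0528). With the GC trend removed it was -0.46. Fgfr1 rose in both, and its difference was -0.03 (SE 0.08, adjusted p = 0.806), but -0.16 with the GC trend removed (adjusted p = 0.031). The differences for Erbb2 (0.23, adjusted p = 0.202), Erbb4 (-0.82, adjusted p = 0.262) and Fgfr4 (-2.94, adjusted p = 0.350) did not pass, and those of Erbb4 and Fgfr4 had standard errors of 0.55 and 2.39. That of Erbb2 passed with library size alone (adjusted p = 0.023) and without knockout replicate 1 (0.0485). Those of Erbb4 (adjusted p = 0.0101) and Fgfr4 (0.00194) passed with limma on log2(TPM + 1).

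The order of the receptors was not the same in the knockout experiment as in the quiescence experiment, even between groups in the same medium. In the GFP control Fgfr1 led at 157 TPM, before Lrig1 at 91.9, Egfr at 82.0, Fgfr3 at 72.6 and Fgfrl1 at 64.4 TPM. Fgfr2 at 16.1, Erbb2 at 9.41 and Erbb4 at 6.91 TPM followed, and Erbb3 and Fgfr4 overlapped at about 0.02 TPM. The knockout had Fgfr1 at 202.3, Lrig1 at 109 and Egfr at 88.8 TPM in the same first places, and the last of these overlapped Lrig1. Fgfrl1 at 67.2 TPM lay just above Fgfr3 at 61.6 TPM there, the reverse of the control.

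Between the proliferating and the GFP control cells, both in FGF and EGF, Erbb4 was 14.2-fold and Egfr 2.27-fold higher in the GFP control by TPM. Fgfrl1 was 5.26-fold, Fgfr3 3.49-fold, Lrig1 3.10-fold and Erbb2 3.06-fold higher in the proliferating cells. These ratios followed the GC content of the transcripts. Erbb4, with 41.4% GC, and Egfr, with 47.6%, were the only 2 of the 8 receptor genes tested in both experiments that were higher in the GFP control, and Fgfrl1, with 58.5%, was at the other end. Across these 8 genes Pearson's r was -0.95 and Spearman's rho -0.74, and across 11462 genes r was -0.72, as descriptions over genes that share the same libraries. The median log2 ratio over all genes ran from 2.38 to -0.88 between the lowest and the highest of 5 equal groups of genes by GC. Experiment and GC-linked differences between libraries cannot be told apart, so these ratios are not read as a change between the cells. Within each experiment, the log2 fold changes had little linear relation to GC over all genes tested (r = -0.11 and 0.10). Single receptor genes still depended on it. Removing each library's GC trend moved Erbb2 in quiescence from -0.43 to -0.26 and Fgfr1 from 0.30 to 0.45. Fgfr3 went from -0.95 to -0.80, Fgfrl1 from 0.71 to 0.87 and Lrig1 from 0.42 to 0.57. Erbb4, not called, went the other way, from 0.13 to -0.24. Egfr hardly moved, and the same 8 genes passed.

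**Figure D3:**
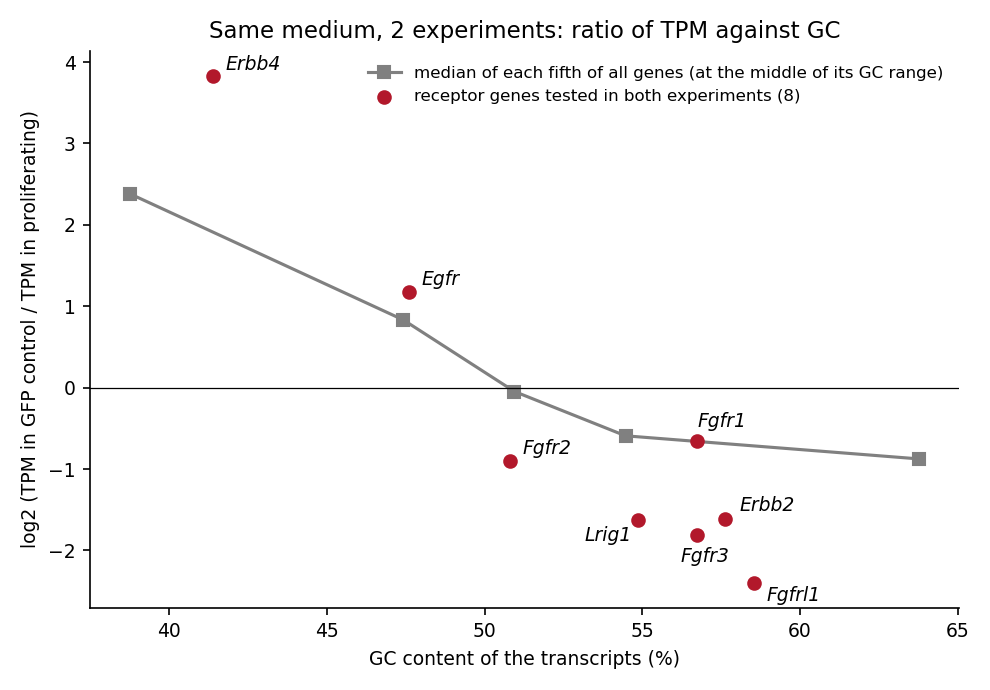
Log2 ratio of mean TPM in the GFP control to mean TPM in the proliferating cells against the GC content of each gene's transcripts, for the 8 receptor genes tested in both experiments (points) and for 5 equal groups of all genes by GC (squares, medians). The ratio falls with GC content, from 14.2-fold higher in the GFP control for Erbb4 at 41.4% GC to 5.26-fold higher in proliferating cells for Fgfrl1 at 58.5%.

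The 2 Egfr forms shown above divided the gene's TPM differently in the 2 experiments. The truncated Egfr-202 made up 68.4 ± 5.37% of Egfr TPM in quiescent and 74.5 ± 2.77% in proliferating cells (n = 4 each), a difference of -6.14 percentage points (exact permutation p = 0.114, adjusted p = 0.457). In the knockout experiment it made up 33.3 ± 1.46% in the knockout and 30.4 ± 3.73% in the control (n = 3 each). The full-length Egfr-201 made up 58.7% and 64.5% there, with non-overlapping libraries, and 25.1% and 20.2% in quiescent and proliferating cells. Egfr-201 has 44.4% GC over 10208 bases and Egfr-202 50.6% over 2943 bases, so this contrast between experiments lies along the same GC trend and cannot be told apart from it.

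**Figure D4:**
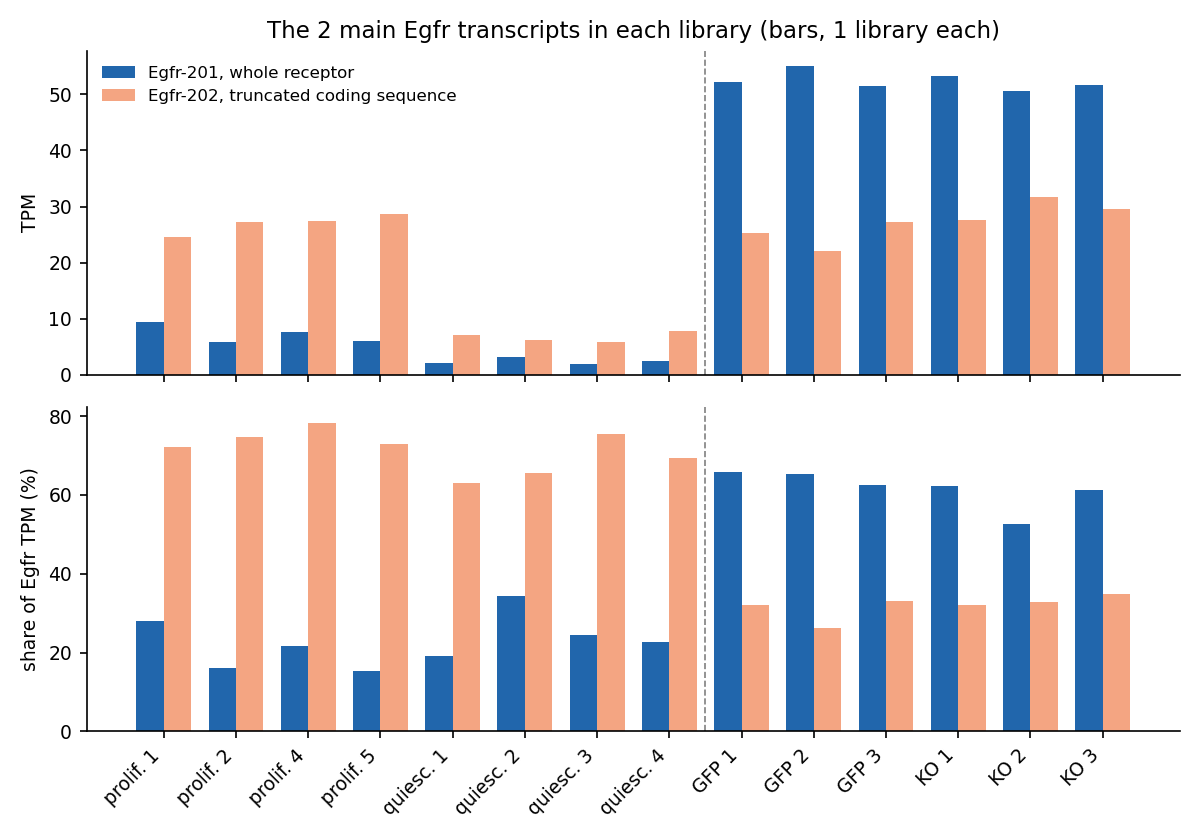
TPM (top) and share of the gene's TPM (bottom) of the full-length Egfr-201 and the truncated Egfr-202 in each library, with 1 bar per transcript and library and a dashed line between the 2 experiments. Egfr-202 is the larger in all 8 libraries of the quiescence experiment and Egfr-201 in all 6 of the knockout experiment.

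Of 16 receptor transcripts tested for their share between quiescent and proliferating cells, 0 passed an adjusted p of 0.05 and 0 an unadjusted one, in exact permutation tests (smallest adjusted p 0.305). With 4 against 4 libraries no such p can go below 0.0286, which leaves little room to pass after adjustment. With 3 against 3 libraries no exact test can go below 0.1, so the knockout is described only. An Lrig1 transcript annotated for nonsense-mediated decay took 14.4 ± 2.50% of Lrig1 TPM in the knockout and 10.02 ± 0.763% in the control, without overlap. The main Lrig1 transcript, with the same 1091 codons, took 79.7% and 87.0%. For Erbb4, the form of 1292 codons took 92.0 ± 8.72% in the knockout (82.7 to 100%) and 59.96 ± 5.42% in the control, also without overlap. The form of 1308 codons took 5.77 ± 9.99% and 26.7 ± 17.1%, and its libraries overlapped. The shorter form holds 98.8% of the coding bases of the longer one. Erbb4 had only 233 to 272 counts per knockout library, so how its reads divide between these forms is uncertain. The main Lrig1 transcript, Egfr-201 and an Fgfr1 transcript annotated for nonsense-mediated decay did not overlap either, and all other transcripts looked at did. For any 1 transcript, chance alone separates 3 against 3 libraries with a probability of 0.1.

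The ligands of the receptors and the genes downstream of them were also measured, and each count is to be read against the 65.4% of all genes called in quiescence and the 51.6% called in the knockout. Of 11 EGF family ligands 4 could be tested in the quiescence experiment, of which 3 rose and 1 fell in quiescence, with a median log2 fold change of 0.77 against -0.01 for all genes. Tgfa, a ligand of EGFR, rose from 10.5 to 66.7 CPM (log2 fold change 2.67, adjusted p = 3.75e-12), Hbegf from 133 to 214 CPM (0.68, adjusted p = 5.28e-08) and Nrg2, a neuregulin, from 9.75 to 17.7 CPM (0.86, adjusted p = 7.11e-06). Ereg fell from 1.70 to 0.605 CPM (-1.47, adjusted p = 0.00268). In the knockout 1 of 5 passed, Areg, which fell from 4.41 to 1.21 CPM (-1.88, adjusted p = 0.000178).

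Of 18 FGF ligands only Fgf1 and Fgf2 had counts enough to test. Fgf1, which binds all 4 signalling FGF receptors, rose in both experiments, from 32.1 to 119 CPM in quiescence (log2 fold change 1.89, adjusted p = 2.47e-13) and from 239 to 607 CPM in the knockout (1.34, adjusted p = 0.000233). Fgf2, below the level set for naming genes and named after its values were seen, rose from 0.733 to 2.85 CPM in quiescence (3.90-fold, adjusted p = 0.00110). It had 27 counts in proliferating and 85 in quiescent cells, and in the knockout its adjusted p was 0.352. Of the 2 FGF ligands called in quiescence, 1 remained with limma on log2(TPM + 1) and 1 with counts scaled from TPM. All 3 tested genes that release ligands from the membrane were higher in quiescent cells, and 2 of the 3 passed with library size alone. The proteases Adam10 (1.43, adjusted p = 0.00281) and Adam17 (0.77, adjusted p = 0.00115) led, with Rhbdf1, a partner of Adam17, at 0.21 (adjusted p = 0.00266). In the knockout 0 of the 3 passed in edgeR, adjusted or unadjusted, and their log2 fold changes lay between 0.01 and 0.09.

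Heparan sulphate proteoglycans, which hold FGFs to their receptors, moved both ways. Of 11 co-receptors and proteoglycans tested, 3 rose and 4 fell in quiescence, with a median log2 fold change of -0.08. Gpc6 (1.48) and Gpc4 (0.83) rose, and Sdc1 (-1.58) and Gpc1 (-0.67) fell. In the knockout 2 of 12 were higher and 5 lower, with a median of -0.13. Gpc4 (0.62, adjusted p = 2.96e-05) and Sdc2 (0.26, adjusted p = 0.0110) rose, and Sdc1 (-0.78, adjusted p = 1.78e-05) and Flrt2 (-0.80, adjusted p = 0.000184), an adhesion protein that binds FGF receptors, fell.

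Of 10 genes that limit or recycle the receptors 4 rose and 1 fell in quiescence (median log2 fold change 0.19), a smaller share than among all genes, and 4 to 7 were called over the alternatives. Errfi1, whose product blocks the EGFR kinase, rose from 29.7 to 66.9 CPM (1.17, adjusted p = 8.83e-10), and Sh3kbp1, an adaptor for receptor uptake, from 5.18 to 13.3 CPM (1.36, adjusted p = 5.03e-06). Usp8, from 10.2 to 20.3 CPM, and Cbl (0.28) also rose, and Socs5 (-0.82) fell. The relatives of Lrig1, Lrig2 and Lrig3, had adjusted p values of 0.822 and 0.189. In the knockout Usp8 and Rnf41 rose, by 0.22 each, and Sh3kbp1 (-0.42) and Cbl (-0.20) fell.

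Downstream of the receptors, genes moved both ways. Of 22 adaptors and proximal effectors 8 rose and 6 fell in quiescence, with a median of 0.01 on the log2 scale, a share near that of all genes. With library size alone 5 rose and 8 fell. Sos2 (1.19) and Pik3ca (0.99) rose, and Gab1 (-0.75) and Shc2 (-0.63) fell. In the knockout 7 of 22 were higher, led by the adaptors Gab2 (0.66) and Nck2 (0.64), and 2 were lower, Pik3cb (-0.33) and Pik3r1 (-0.26), both of the PI3 kinase. Of 11 genes of the RAS to ERK cascade 3 rose and 3 fell in quiescence, among them Hras (-0.50), Ksr1 (0.31) and Mapk3, which encodes ERK1 (0.27). In the knockout 3 rose and 4 fell, with Mapk3 at 0.46 and Nras at -0.32.

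Other receptor tyrosine kinases give a measure of how usual such changes were. Of 50 such genes 30 were tested in each experiment. In quiescence 14 rose and 7 fell, with a median log2 fold change of 0.19, and in the knockout 14 rose and 4 fell, with a median of 0.24. Kit rose from 11.1 to 155 CPM in quiescence (3.80, adjusted p = 4.53e-15), about as large a log2 change as that of Fgfr4 at a far higher level, and Kdr rose from 2.32 to 11.3 CPM (2.29). Ephb3 (-0.93) and Tyro3 (-0.89) led those that fell. In the knockout Mertk rose from 27.0 to 77.1 CPM (1.52, adjusted p = 0.000731), as did Tek (0.86), and Ror2 (-0.60) and Ephb3 (-0.40) fell.

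**Figure D5:**
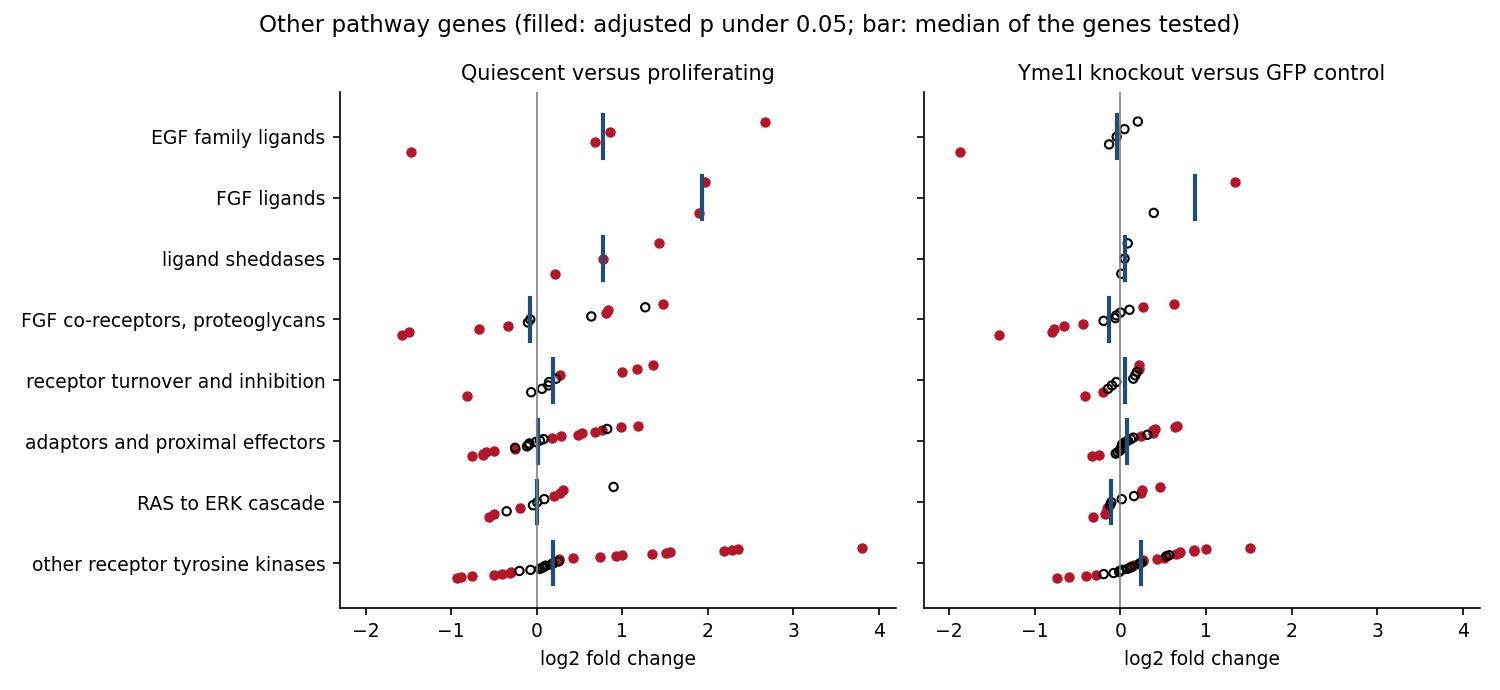
Log2 fold change of every tested gene of 8 pathway lists in the quiescence (left) and knockout (right) comparison, with filled points for an adjusted p under 0.05 and a bar at the list's median. The 3 sheddase genes and 3 of 4 EGF family ligands lie to the right of 0 in quiescence, while adaptors and the RAS to ERK cascade centre near 0.

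For 7 receptor genes with at least 5 CPM in both experiments, the genes with the most similar profile over the 14 libraries were sought, by the root mean square difference of log2(CPM + 1) after centring each experiment. Egfr was closest to Wnt5a (0.136), Rbm38 (0.136) and Btbd17 (0.136), against a median of 0.663 over 9144 genes. Fgfr3 was closest to 2410002F23Rik (0.0517), Usf1 (0.0547) and Mta1 (0.0572), and Fgfr1 to AU040320 (0.0371), Pcdhgc3 (0.0372) and Bcap31 (0.0422). Fgfrl1 lay nearest to Cyb5r3 (0.0444), Lrig1 to Slc2a1 (0.0460) and Fgfr2 to Nectin3 (0.0825). No receptor gene was among the 3 nearest of another.

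The promoters of Egfr and Fgfr4, the receptor genes with the largest fall and the largest rise in quiescence, are shown from RefSeq on GRCm38.p6. Each runs from 250 bases before to 50 after the start of the gene, 5′ to 3′ on the plus strand, with GC boxes (GGGCGG on either strand) in capitals. They lie at chr11:16751953-16752252 and chr13:55152568-55152867.
Egfr: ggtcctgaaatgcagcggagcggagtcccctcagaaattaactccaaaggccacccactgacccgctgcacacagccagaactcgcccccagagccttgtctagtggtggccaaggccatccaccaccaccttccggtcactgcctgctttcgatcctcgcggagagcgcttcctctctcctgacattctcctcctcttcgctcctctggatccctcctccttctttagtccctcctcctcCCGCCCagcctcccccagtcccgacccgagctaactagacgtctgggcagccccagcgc
Fgfr4: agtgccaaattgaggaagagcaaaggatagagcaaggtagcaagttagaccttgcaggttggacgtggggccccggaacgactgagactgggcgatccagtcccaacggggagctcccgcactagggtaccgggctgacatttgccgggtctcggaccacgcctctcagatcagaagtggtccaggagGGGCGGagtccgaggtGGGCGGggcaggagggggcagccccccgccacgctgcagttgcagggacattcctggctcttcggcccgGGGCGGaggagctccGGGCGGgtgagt

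The Egfr window held 1 GC box and 62.3% GC, and the Fgfr4 window 4 GC boxes and 65.3% GC. Among 32851 promoters in the table, 35.7% held a GC box and the median GC content was 52.7%. Of the receptor genes 8 had a promoter there, with 2 for Fgfr3. Fgfrl1 had 4 GC boxes, Lrig1 had 2, the 2 promoters of Fgfr3 had 4 and 2, and those of Erbb2, Erbb4 and Fgfr2 had 0. A GC box was thus found in genes that rose and in genes that fell. The motif GGCGCC, bound by BMP-activated SMAD proteins, was found on either strand in 11.9% of all promoters, and among the receptor genes in those of Fgfr3 and Fgfrl1, which moved in opposite directions in quiescence. The E2F motif TTCCCGCC and the TATA box TATAAA, searched on both strands, were in 2.19% and 13.6% of all promoters and in 0 of the 9 windows of the receptor genes.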

How the data were processed

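Poly-A RNA of 14 libraries was sequenced after stranded library preparation, per the labels' protocols. The authors deposited salmon tables of estimated counts and of TPM per gene and per transcript. They also deposited a test table with log2 fold changes, p-values and a mean normalised signal per gene. Per the submitters' processing notes the build was GRCm39 and the test DESeq2 1.30.1 in R 4.0.3. The aligner's settings are not given in the sources used here.

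Estimated counts were rounded and tested in edgeR 4.0.16 (R 4.3.3) with TMM normalisation, filterByExpr and a robust quasi-likelihood fit, separately for each experiment. A gene was called when its p, adjusted by Benjamini-Hochberg over all genes tested, was under 0.05. Rows naming no gene (4) held 0 counts. CPM are counts scaled to the TMM-adjusted library. Values with ± are mean and SD, and fold changes are on the log2 scale with a standard error. Intervals of count ratios cover counting error only, since reads carry no molecular identifiers. The difference of effects used 1 fit of all 14 libraries. Transcript shares are percent of a gene's summed transcript TPM, for transcripts of at least 10% on average, with exact permutation tests. GC content, codons and GC boxes came from GENCODE and RefSeq tables of GRCm38, by ID or symbol, and gene coordinates from the deposited tables. The gene test was checked on simulated data.

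The members and all gene lists were chosen with earlier results of these data known. All 10 members are named, and some results for other genes are not reported here. From each list the 2 called genes with the largest change per direction and comparison are named (mean of at least 5 CPM), and any gene of lists with 12 or fewer. No pairing was used. The alternatives were RLE size factors, library size alone, no filter, a filter of 1 CPM, a replicate block, DESeq2 1.42.0, limma 3.58.1 on log2(TPM + 1) and log2(TPM + 0.1), all 14 libraries in 1 fit, counts scaled from TPM, leaving out each library and, added after seeing the data, removal of each library's GC trend.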

Additional observations from a re-analysis of the deposited data

Results flagged for a closer look

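Among 40 sets of 4 libraries (CPM and TPM of each gene in each group of 4), 2 held a library far from the others. Chance alone marks about 1 in 20 such sets, and 2 of 40 is that share. Fgfr2 in proliferating replicate 2 was at 33.7 TPM, with the other 3 libraries between 28.3 and 29.2 TPM. Lrig1 in proliferating replicate 5 was at 279.8 TPM, with the other 3 between 286.2 and 286.5 TPM, a gap that is wide only against their very narrow spread.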

How the results depend on the processing

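In the quiescence comparison the same 8 receptor genes were called under all 19 alternatives, and no called receptor gene changed direction in any comparison. In the knockout comparison the 4 called genes became 2 with all 14 libraries in 1 fit (Fgfr1 and Fgfr3) and 2 with counts scaled from TPM (Fgfr1 and Erbb4). They numbered 3 to 4 when single libraries were left out. Lrig1 was lost in each case with fewer than 4, among them library size alone (adjusted p = 0.0744), limma on TPM (0.108 with either pseudocount) and removal of the GC trend (0.0504). For Fgfr3 the adjusted p with counts scaled from TPM was 0.0544. The difference of effects was called for 4 to 6 genes. Leaving out single libraries gave 8 to 8, 3 to 4 and 4 to 6 called genes in the 3 comparisons. Transcript shares are not part of this check, since with a library left out no exact permutation p can go below 0.05. Library size alone moved the median log2 fold change of all genes in quiescence to -0.15, and the receptor genes moved with it, as given beside their results. With a replicate block 8, 4 and 4 receptor genes were called, and in quiescence 2 of the 3 genes that release ligands and 5 higher and 6 lower of the 22 adaptors. Lrig1 then no longer passed for the difference of effects (adjusted p = 0.0791). Deviations of same-numbered libraries correlated at -0.33 to -0.01 in the quiescence and -0.06 to 0.00 in the knockout experiment. No library correlated best with its own number, so the numbers are not taken to pair the libraries. The low counts of Erbb3, Fgfr4 and, in quiescence, Erbb4 limit what can be said of them, and the cause of each lost call was not tested.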

Other observations

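The authors' deposited table, with DESeq2 and with the opposite sign for the quiescence comparison (proliferating over quiescent), called the same receptor genes. It gives log2 fold changes of 1.81 for Egfr, 1.02 for Fgfr3 and -3.43 for Fgfr4 in that direction. For the knockout the authors' deposited table gives -0.71 for Erbb4, 0.35 for Fgfr1, -0.22 for Fgfr3 and 0.22 for Lrig1, whose adjusted p was 0.0474.

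Among all genes above 0 TPM, Egfr stood at percentile 60.5 in quiescent and 78.2 in proliferating cells, and at 89.4 and 90.8 in the GFP control and the knockout. Fgfr1 stood between percentiles 95.03 and 97.1 in all 4 groups, the narrowest span of the receptor genes tested in both experiments, while Fgfrl1 ranged from 86.4 to 98.4. TPM followed GC content between the experiments, as given above, so spans over both are not read as a change between the cells.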
